A study of Mus musculus with 2 samples.

Results

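The 10 genes described here encode RNA-binding proteins of nerve cells that control splicing or the fate of messenger RNA, namely Srrm4, Rbfox1, Rbfox3, Nova1, Khdrbs2, Ptbp2, Elavl2, Elavl3, Elavl4 and Celf4. They were listed by name out of 21883 protein-coding genes, and a peak counts as theirs when it overlaps the mm10 gene body with 50 kb on either side. By that rule they held 53 of 22570 M6 peaks and 3 of 5735 W2 peaks. The data are ATAC-seq peak lists, in which a transposase marks open chromatin, from prostate tumor cells of C57BL/6 mice during progression to neuroendocrine prostate cancer (NEPC), a tumor type with nerve and endocrine traits. M6 is the late stage, after 6 months of tamoxifen, and W2 the early stage, after 2 weeks of tamoxifen, with 1 library each. Both groups thus share the strain and the drug. The alleles the mice carry, what tamoxifen induces in them, and whether the cells had been cultured are not stated in the labels. No difference below has a replicate check.

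The members act on RNA in neurons at several levels. Srrm4 (also called nSR100) drives inclusion of very short neural exons, and its human counterpart is known for neural splicing in NEPC. The RBFOX, NOVA and KHDRBS proteins choose exons of synaptic and cytoskeletal genes, and Ptbp2 holds back adult exons in young neurons. The neuronal ELAVL proteins (HuB, HuC and HuD) mainly stabilise messages with AU-rich elements, and Celf4 binds many synaptic messages. Open chromatin at such a gene is a measure of access to its regulatory DNA, not of its RNA.

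The sequences that bear on the findings are the 250 bases before an annotated start, 5′ to 3′, as RefSeq gives them for GRCm38.p6, the assembly that mm10 names. Listed promoters were found for 9 members, with 18 starts, and none is listed for Celf4. The first 4 below are promoters with an M6 peak over them and no W2 peak, and the last belongs to Ptbp2, which had no peak in either library. Capitals mark matches on either strand to any of 8 motifs. The GC box was searched as GGGCGG. The CCAAT box was searched by the letters of its name. The E-boxes read by neural bHLH factors were searched as CAGCTG, and separately as CATCTG. The AP-1 site was searched as TGACTCA. The forkhead site was searched as TGTTTAC. For the element of the repressor REST, its left part was searched as TTCAGCACC. The cyclic AMP response element (CRE) was searched as TGACGTCA.
Khdrbs2, chr1:32172472-32172721, plus strand: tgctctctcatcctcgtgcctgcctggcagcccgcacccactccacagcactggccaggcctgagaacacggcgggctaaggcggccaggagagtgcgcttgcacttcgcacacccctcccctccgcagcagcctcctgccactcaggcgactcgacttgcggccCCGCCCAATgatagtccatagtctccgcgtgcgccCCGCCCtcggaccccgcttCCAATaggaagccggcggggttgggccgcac
Srrm4, chr5:116591818-116592067, minus strand: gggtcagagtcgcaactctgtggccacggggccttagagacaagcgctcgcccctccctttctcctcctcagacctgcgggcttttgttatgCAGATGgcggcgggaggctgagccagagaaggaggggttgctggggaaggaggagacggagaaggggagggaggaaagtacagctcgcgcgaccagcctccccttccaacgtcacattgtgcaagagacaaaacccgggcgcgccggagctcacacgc
Elavl2, start inside the gene, chr4:91376471-91376720, minus strand: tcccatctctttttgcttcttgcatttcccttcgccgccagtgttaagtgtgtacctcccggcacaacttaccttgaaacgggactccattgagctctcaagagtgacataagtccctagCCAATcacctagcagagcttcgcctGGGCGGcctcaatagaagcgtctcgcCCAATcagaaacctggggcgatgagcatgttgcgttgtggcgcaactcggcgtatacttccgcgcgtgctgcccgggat
Elavl4, outermost start, chr4:110351912-110352161, minus strand: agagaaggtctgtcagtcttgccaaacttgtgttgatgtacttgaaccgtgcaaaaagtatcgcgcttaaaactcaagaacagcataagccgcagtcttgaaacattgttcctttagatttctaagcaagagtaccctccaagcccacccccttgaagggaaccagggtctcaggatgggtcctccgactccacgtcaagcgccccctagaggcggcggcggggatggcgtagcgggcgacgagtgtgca
Ptbp2, chr3:119783389-119783638, minus strand: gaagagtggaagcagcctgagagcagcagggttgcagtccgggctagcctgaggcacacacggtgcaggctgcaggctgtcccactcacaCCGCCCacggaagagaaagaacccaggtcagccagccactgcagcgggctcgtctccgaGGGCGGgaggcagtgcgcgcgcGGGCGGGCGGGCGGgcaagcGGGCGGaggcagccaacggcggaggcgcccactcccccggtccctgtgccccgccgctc

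Khdrbs2 showed 2 GC boxes and 2 CCAAT boxes, the first pair sharing letters. Its peak summit lay 51 bp before the annotated start, beside the second GC box, which begins 50 bases before that start. The Elavl2 sequence held 2 CCAAT boxes and 1 GC box, the Srrm4 sequence 1 CATCTG E-box and the Elavl4 sequence none of these motifs. Ptbp2 had 6 GC boxes, of which those in the longest capital run share letters. Of the 18 promoters of the members, 8 held a GC box, 11 a CCAAT box, 5 CAGCTG and 4 CATCTG. Of all 21262 promoters of protein-coding genes of this length, 42.6% held a GC box, 35.4% a CCAAT box, 12.1% CAGCTG and 12.4% CATCTG. The letters of AP-1, forkhead, REST and CRE elements were in none of the 18, and in 4.06%, 2.62%, 0.329% and 1.92% of all promoters. Several of the 18 overlap each other and so share their matches, as Elavl2 has 6 listed starts and Elavl4 has 4.

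The promoters differed in base composition. CpG dinucleotides, which cluster at promoters of broadly used genes, numbered 21 in the Khdrbs2 sequence, 17 in those of Srrm4 and Elavl2 and 14 in that of Elavl4, against a median of 10 over all promoters and 17 over the 4150 promoters with an M6 and no W2 peak. Ptbp2 had 23, more than 82.6% of all promoters. The Elavl3 promoter had 20, and other inner Elavl2 promoters had 21, 18 and 18. The Rbfox3 promoter had 3 CpG, with fewer in 22.6% of promoters, and the outer Rbfox1 promoter had 2, with fewer in 15.1%. No peak of either library lay on the promoters named here from Ptbp2 on. Members' promoters without a peak were thus both rich and poor in CpG.

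The first question was how the late-stage cells compared with the early-stage cells at these genes. In M6, 9 of the 10 members had at least 1 peak, against 2 in W2. The same 9 had more peaks in M6 than in W2, a pattern met at 64.2% of all protein-coding genes and at 83.4% of the 2428 genes of at least 100 kb. Median window counts were 2 M6 and 0 W2 peaks over all genes, and 3 and 0 over those long genes. The share of genes with at least 1 peak in each library was not computed. The members are long, with a median body of 171 kb against 17.2 kb over all genes, and 8 of them exceed 100 kb. Peaks in M6 and none in W2 were found at 7 members (Srrm4, Rbfox1, Rbfox3, Nova1, Khdrbs2, Elavl2 and Elavl4), against 27.1% of all genes and 44.6% of the long ones. The median difference, M6 minus W2, was 5.5 peaks per member, 2 per long gene and 1 per gene overall. Whether such a difference reflects more cells with the open site or wider access within the same cells cannot be told apart in bulk libraries.

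**Figure D1:**
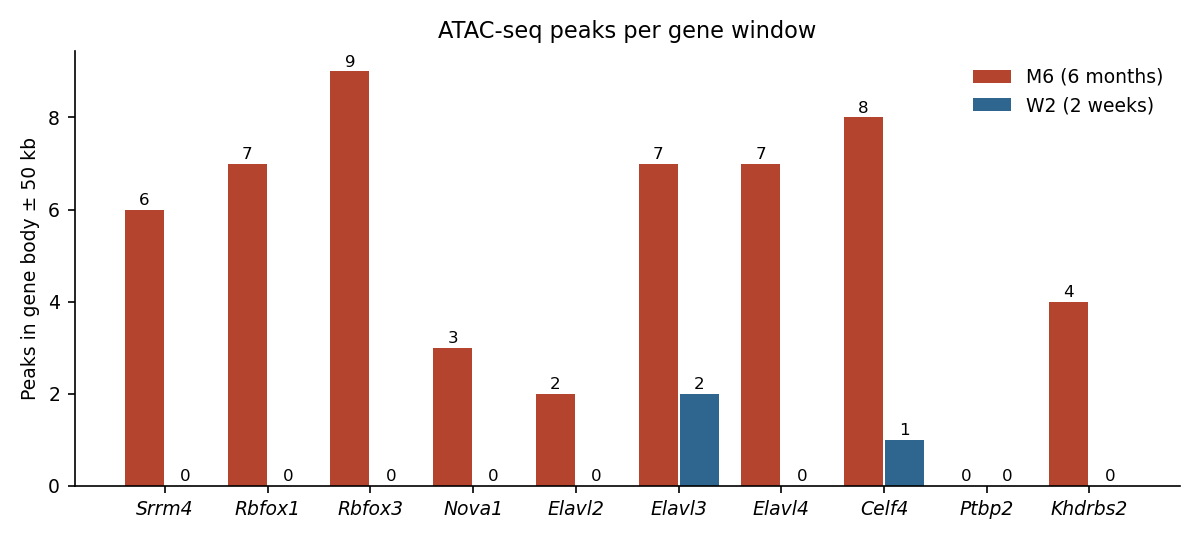
Number of ATAC-seq peaks (y axis) in the gene body with 50 kb on either side of each of the 10 genes (x axis), M6 bar left of the W2 bar, 1 library each. M6 counts run from 0 at Ptbp2 to 9 at Rbfox3, and W2 peaks appear at Elavl3 (2) and Celf4 (1) alone.

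The 53 M6 and 3 W2 peaks stand in a ratio of 17.7 (exact binomial 95% interval 5.73 to 88.4, counting error only). All peaks together gave 3.94, with the lowest local background at 2.65 tags in M6 and 2.96 in W2, and the windows of genes of at least 100 kb, which overlap in part, gave 5.19. Per megabase, the members' windows held 11.8 M6 and 0.671 W2 peaks, those of long genes 9.98 and 1.92, and those of all genes 15.7 and 5.31. The members' M6 density was thus between those of long genes and of all genes, while their W2 density lay below both. With the 5735 strongest peaks of each list by −log10 q, the authors' false discovery measure, the members had 13 M6 peaks at 7 genes and the same 3 W2 peaks. The share of all genes with a window peak in these lists of equal number was not computed.

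Srrm4, the activator of neural microexons, had 6 M6 and 0 W2 peaks. The peak on its promoter (chromosome 5, 116591811 to 116592113) had a summit 178 bp before the annotated start, with 26 tags over it and a −log10 q of 8.11. Tags are the summit pileup recovered from the deposited statistics. This was not the strongest site of the gene. A peak 35.4 kb before the start (116626976 to 116627393) reached a −log10 q of 13.1 and a fold over local background of 6.76, and 2 sites 8.85 and 26.0 kb into the gene had −log10 q values of 9.17 and 9.71. The 3 strongest Srrm4 peaks were therefore all away from the promoter. The remaining ones, 66.4 kb into the gene and 29.6 kb beyond its far end, had −log10 q values of 4.86 and 3.68.

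The RBFOX genes had M6 peaks deep inside their long bodies and none near a start. Rbfox1, which spans 1528 kb, had 7 M6 and 0 W2 peaks. The strongest (chromosome 16, 6397050 to 6397554) lay 512 kb into the gene with 29 tags and a −log10 q of 15.2. A pair of further sites inside the gene had −log10 q values of 11.9 and 10.2, and the other 4 peaks were weaker, the weakest at 3.93. The peak nearest to a listed Rbfox1 start was 13.7 kb away from it. Rbfox3, the gene of the NeuN antigen used to stain mature neurons, had 9 M6 peaks, the most of the 10 genes, and 0 in W2. None stood far above the M6 median −log10 q of 6.92. The strongest (chromosome 11, 118476732 to 118476958, −log10 q 7.74) sits at the end of the neighbouring Engase, and the 6 inside Rbfox3 ran from 2.92 to 7.39. The nearest to its listed start was 9.81 kb away. Per megabase of window, Rbfox3 had 17.2 M6 peaks and Rbfox1 4.30, the lowest density of the 9 genes with any.

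Nova1, which encodes an exon selector of neurons and a target antigen in paraneoplastic disease, had 3 M6 and 0 W2 peaks. A peak at its outer end (chromosome 12, 46819392 to 46819984) had 33 tags, a fold of 5.88 and a −log10 q of 13.6. Its summit lay 78 bp outside the annotated body and 791 bp before the listed start. The strongest (46699964 to 46700821, −log10 q 16.2) was also the widest of the 53, at 858 bp, and lay 2.79 kb inside the opposite end of the gene. Both had 33 tags over local backgrounds of 4.78 and 3.86 tags.

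Khdrbs2 (SLM1), known for neurexin exon choice in mouse brain, carried the strongest peak of the set. The peak over its promoter (chromosome 1, 32172480 to 32172991) had 57 tags over a background of 4.64, a fold of 10.3 and a −log10 q of 36.1, and W2 had no peak within 50 kb of the gene. It ranked 90 among the 22570 M6 peaks by −log10 q. Of the 67 M6 peaks at protein-coding gene ends that were at least this strong, 65 overlapped a W2 peak, a comparison chosen after the value was seen. The other unmatched one was at Ppie, with a fold of 3.29 over a background of 57.6 tags. At the M6 background of the Khdrbs2 peak, a W2 summit of 15 tags would have reached the lowest −log10 p in the W2 list (4.50). The W2 background at this site is unknown, so this is no upper limit on the W2 tags. Inside the gene, 93.6, 137 and 222 kb from the start, 3 further M6 peaks had −log10 q values of 8.57, 11.2 and 3.50.

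Ptbp2, the neuronal relative of the splicing repressor Ptbp1, had no peak in M6 or W2 within 50 kb of its body (chromosome 3, 119718741 to 119784647). Such a lack in both libraries was found at 24.6% of all protein-coding genes. It is the only one of the 10 without an M6 peak, and the second shortest. Regions with fewer tags than the lists hold, under 10 in M6 and under 12 in W2 at their lowest, cannot be seen in these files.

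**Figure D2:**
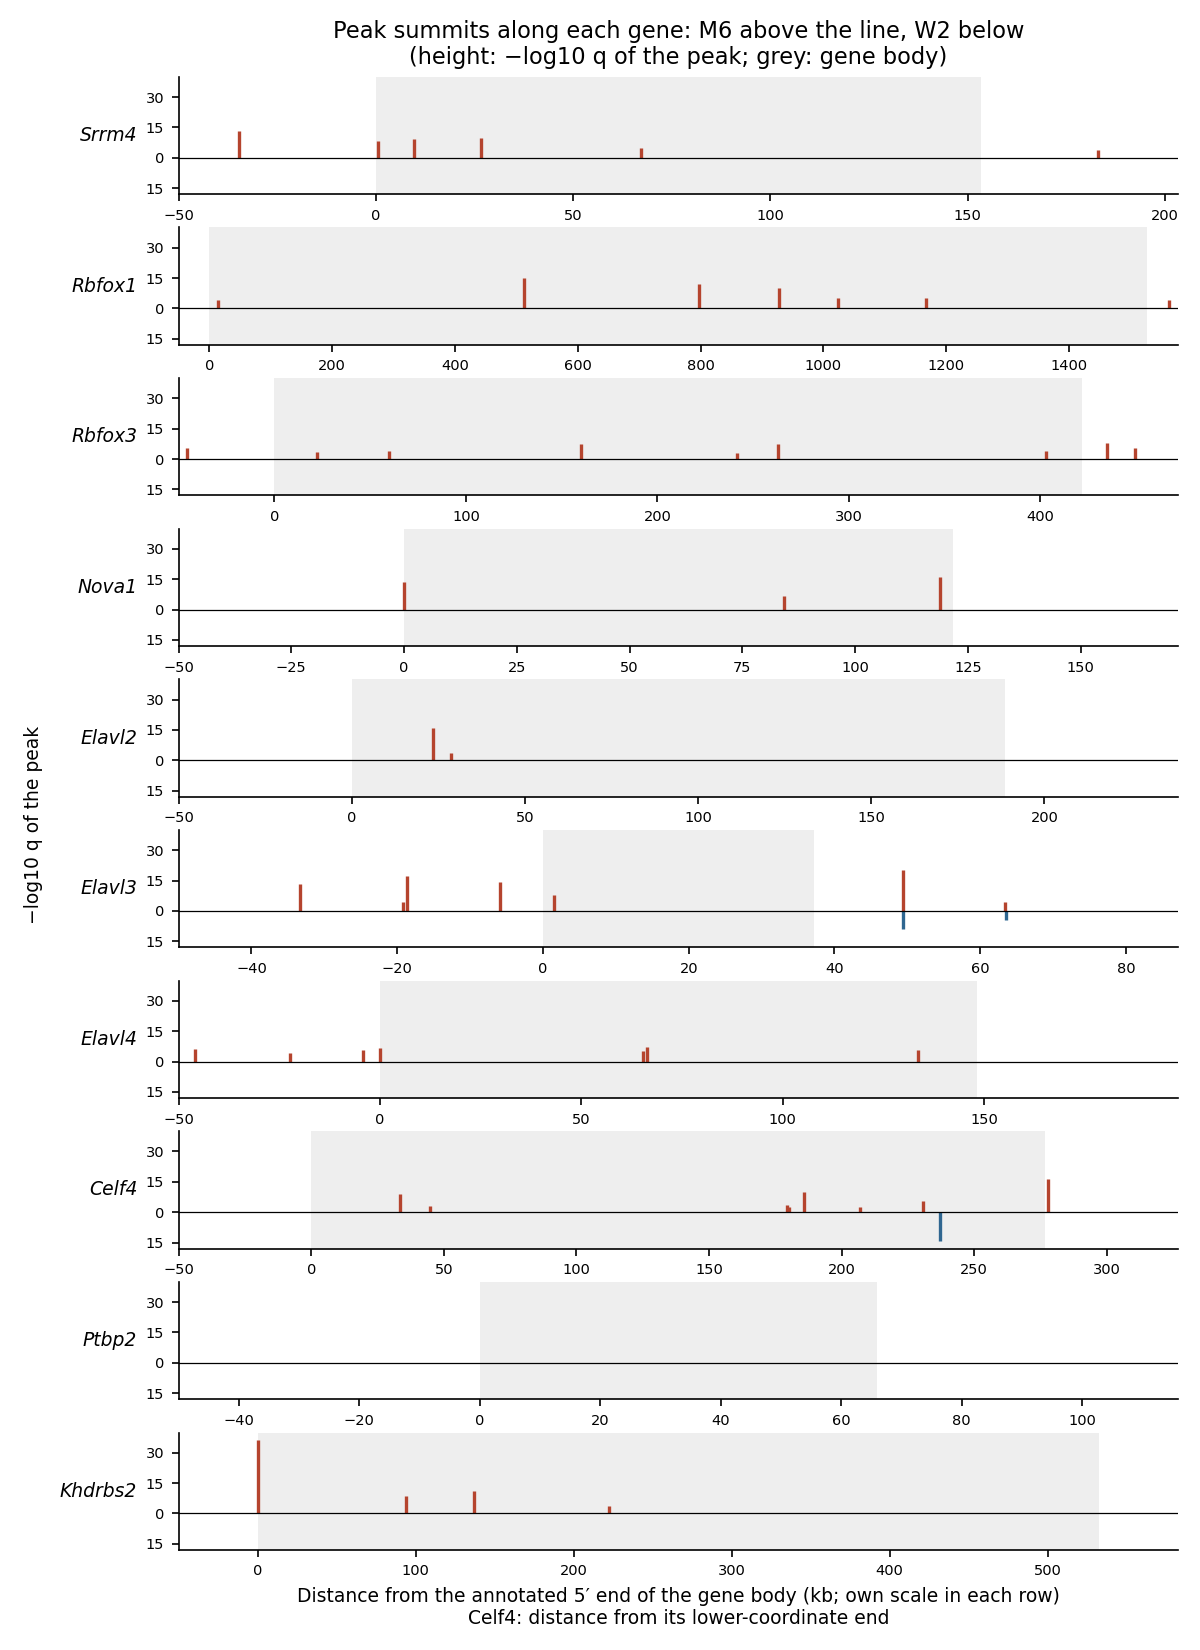
Peak summits along each of the 10 genes, with distance from the annotated 5′ end of the gene body in kb on the x axis (own scale per row, lower-coordinate end for Celf4) and −log10 q on the y axis, M6 in red above the line and W2 in blue below it, grey marking the gene body. M6 peaks sit on the 5′ end of Srrm4, Nova1, Elavl4 and Khdrbs2, and the W2 peak inside Celf4 has no M6 peak at its position.

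Among the ELAVL genes, both M6 peaks of Elavl2 and 2 of the 7 of Elavl4 had a summit within 1 kb of an annotated start, and most of those around Elavl3 belonged to its neighbours. Elavl2 (HuB) had 2 M6 and 0 W2 peaks. The stronger (chromosome 4, 91376376 to 91376770) covered a pair of listed starts 23.5 kb inside the gene, with 41 tags, a fold of 5.71 and a −log10 q of 16.1. The weaker (3.84) lay 608 bp past another group of inner starts. Neither library had a peak at the outermost start, so the Elavl2 starts with an M6 peak were internal ones.

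Elavl4 (HuD) had 7 M6 and 0 W2 peaks, all of modest strength, with −log10 q from 4.10 to 7.13. One covered its outermost start (110351352 to 110351938, 23 tags, −log10 q 6.67), with the summit 53 bp past it. The pair next to the inner starts had 24 and 26 tags, 230 and 1266 bp past the nearest of them, and the second of these (110285478 to 110285701) was the strongest Elavl4 peak, at 7.13. A peak in the flank, at the end of Agbl4, had a −log10 q of 6.16.

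Elavl3 (HuC) lies among 6 other genes, and its window held 7 M6 and 2 W2 peaks. Only 1 M6 peak was inside Elavl3 (chromosome 9, 22050481 to 22050775, 29 tags, −log10 q 7.66), 1447 bp past the start. The strongest in the window (22002556 to 22003154, −log10 q 20.3) is at the ends of Ccdc151 and Prkcsh. Together with 1 at Rgl3 and 3 at Zfp653 and Ecsit, 5 of the 7 lay at ends of other genes. Both W2 peaks of this window were at the same neighbours, at Ccdc151 and Prkcsh (22002606 to 22003118, −log10 q 8.98) and at Rgl3 (21988527 to 21988732, 4.31). No W2 peak lay within Elavl3 itself.

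Those neighbour sites were the only ones that the libraries shared. At Ccdc151 and Prkcsh the summit had 45 tags in M6 and 25 in W2, a ratio of 1.80 (exact binomial 95% interval 1.08 to 3.06). At Rgl3 it had 20 tags in M6 and 17 in W2, a ratio of 1.18 (0.585 to 2.39), which counting error does not separate from 1. Over all 4618 shared W2 sites the median ratio was 1.46, with the middle 50% from 1.18 to 1.75.

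Celf4, whose protein binds synaptic messages, had 8 M6 peaks and 1 W2 peak, and no site was shared. The W2 peak (chromosome 18, 25714463 to 25714894), inside the gene and 39.9 kb from its higher-coordinate end, had 32 tags, a fold of 6.90 and a −log10 q of 14.4. Of the 292 W2 peaks at least that strong, 7 had no M6 counterpart, again a comparison chosen after the value was seen. The nearest M6 peak was 5.84 kb away. At the background of the W2 peak, 12 tags would have reached the lowest −log10 p of the M6 list (3.795). The M6 background at this site is likewise unknown. In M6 the strongest Celf4 peak was instead at the higher-coordinate end of the gene (25755402 to 25755707), with 41 tags, a fold of 5.83 and a −log10 q of 16.5. The 7 M6 peaks inside the gene ran from 2.55 to 9.87 and include the weakest of the 53.

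**Figure D3:**
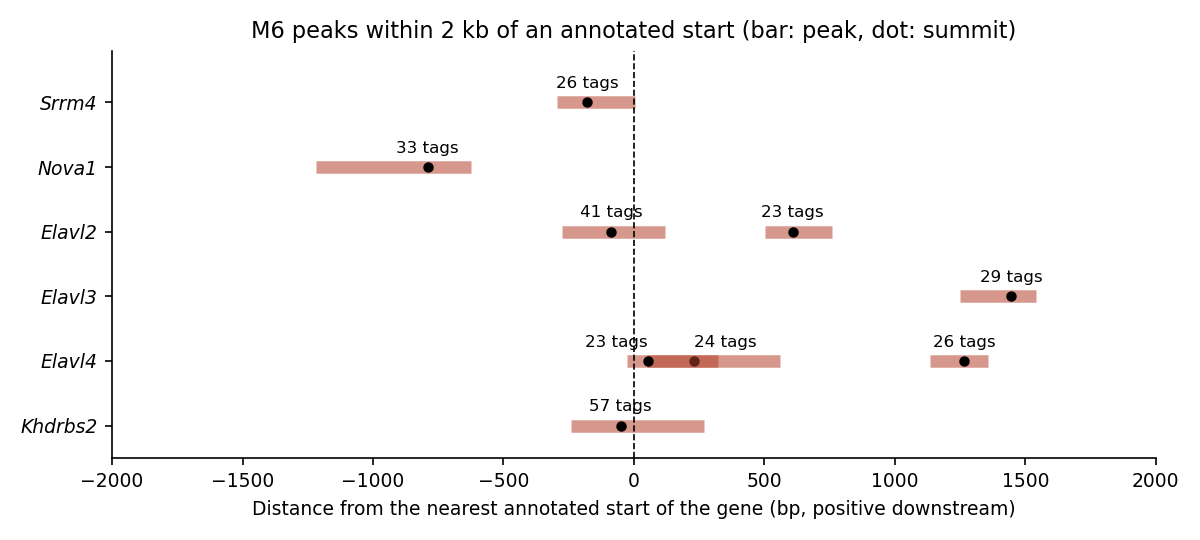
M6 peaks with a summit within 2 kb of an annotated start of their gene, with distance from the start in bp on the x axis (positive downstream) and genes on the y axis; bars are peak intervals, dots are summits and labels give the tags over them. The nearest summits of Srrm4, Elavl2, Elavl4 and Khdrbs2 lie 178, 88, 53 and 51 bp from a start, those of Nova1 and Elavl3 lie 791 and 1447 bp away, and W2 had no peak in this range at these genes.

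Gene ends were compared next, as peaks within 1 kb of either annotated end. In M6, 5 of the 10 members had one (Srrm4, Nova1, Khdrbs2, Elavl4 and Celf4), against 0 in W2. Over all protein-coding genes the shares were 39.7% in M6 and 18.4% in W2, and over long genes 45.8% and 17.1%. The M6 count is near this background, and an M6 gene-end peak without one in W2 occurred at 21.9% of all genes. Peaks within 1 kb of any listed start gave 5 of 9 members in M6 and 0 in W2, where Elavl2 enters and Celf4 has no listed start. Over the 17491 genes with a listed promoter, these shares were 42.3% and 19.9%. With equal numbers of peaks, Khdrbs2, Nova1 and Celf4 kept an M6 gene-end peak, against 16.5% of all genes.

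**Figure D4:**
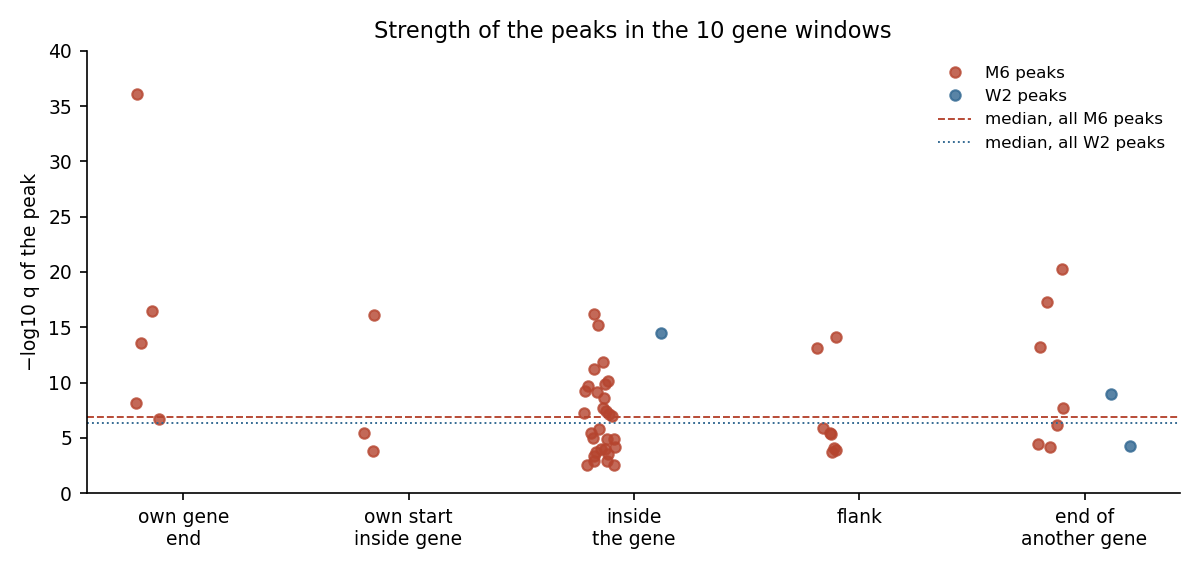
Authors' −log10 q (y axis) of each of the 53 M6 peaks (red, left) and 3 W2 peaks (blue, right) by position (x axis), with the median of all M6 peaks dashed and of all W2 peaks dotted. Gene-end peaks have a median of 13.6 and are led by Khdrbs2 at 36.1, while peaks inside the genes lie on both sides of the library median of 6.92.

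By position, 30 of the 53 M6 peaks (56.6%) were inside a member and over 1 kb from its ends and listed starts (7 of them in Celf4, with no listed start), 8 were in the flanks, 7 at an end of another gene, 5 at an end of the member and 3 at a start inside it. Peaks at an end of any protein-coding gene made up 36.8% of all M6 peaks. Of the 53, 9.43% lay at an own end and a further 13.2% at an end of another gene. The 5 at the members' own ends had a median −log10 q of 13.6, those inside the genes 6.37 and those in the flanks 5.37. Taken as one set, the 53 were ordinary in strength, with a median −log10 q of 6.67 against 6.92 for the whole M6 list, a median of 21 tags against 21, and a median width of 354 bp against 337 bp. Their local background was 0.753 to 1.92 times the median over all M6 peaks.

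Absence from W2 was not limited to weak sites. Of the 53 M6 peaks, 2 overlapped a W2 peak (3.77%, exact binomial 95% interval 0.460 to 13.0%), against 20.2% of all M6 peaks. Among the 27 members' peaks at or above their own median, 1 did, against 33.2% of all M6 peaks of that strength. Among the 13 in the list of equal number, 1 did, against 50.5% of that list. None of the 5 at the members' own ends overlapped a W2 peak, while 56.1% did among the 5186 M6 gene-end peaks that reached a −log10 q of 6.67. The shares of 20.2%, 33.2% and 50.5% cover all positions together, and gene-end peaks were shared more often than that mixture. Of the 53, 30 were inside a member and 8 in the flanks, so these shares are not matched to them by position. Shares for peaks away from gene ends were not computed. M6 pileups exceeded those of W2 at 85.8% of all shared sites, and the part of that general difference in these results was not tested.

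Related genes were counted to place the members. Of 10 other RNA-binding genes of nerve cells, 4 had a gene-end peak in M6 and 1 in W2. These were Celf6 (−log10 q 25.1 in M6 and 5.55 in W2), and in M6 alone Nova2 (19.1), Celf3 (15.1) and Cpeb3 (2.02, shared with an end of Marchf5). Nova2 is the paralog of Nova1, and Celf3 and Celf6 are relatives of Celf4. The windows of this list held 43 M6 and 10 W2 peaks, a ratio of 4.30.

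Of 8 broadly used relatives of the members, 4 had such a peak in M6 and 1 in W2. Ptbp1, the repressor that Ptbp2 replaces in neurons, had one in both libraries, with 38 tags in M6 and 26 in W2 (−log10 q 12.8 and 8.51). Elavl1, the ubiquitous HuR (11.9, shared with Ccl25), Srrm1 (6.19) and Ptbp3 (4.62) had one in M6 alone. Among 3 epithelial splicing regulators, Esrp1, which sets epithelial exons, had a gene-end peak in both (−log10 q 11.2 in M6 and 7.01 in W2), Esrp2 in M6 alone (8.06) and Rbm47 in neither.

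Of 28 general splicing factors, used in all cells, 25 had gene-end peaks in M6 and 16 in W2, and all 16 were among the 25. The strongest in M6 were at Sf1 (−log10 q 32.4 in M6 and 13.3 in W2), Hnrnpc (22.8 and 14.6), Tra2b (18.4 and 4.15) and Hnrnpa1 (15.9 and 14.3). With equal numbers of peaks this list had 10 genes in M6 and 16 in W2, whereas the 10 members had 3 and 0. Of 10 genes spliced by the members or acting with them, 4 had a gene-end peak in M6 and 1 in W2. Among them were Unc13b (14.9 in M6 and 8.16 in W2, shared with Fam214b), and in M6 alone the calcium channel gene Cacna1b (9.34) and the neurexin gene Nrxn2 (5.37). Rest, the repressor of neuronal genes whose splicing SRRM4 alters, lacked one in both libraries.

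**Figure D5:**
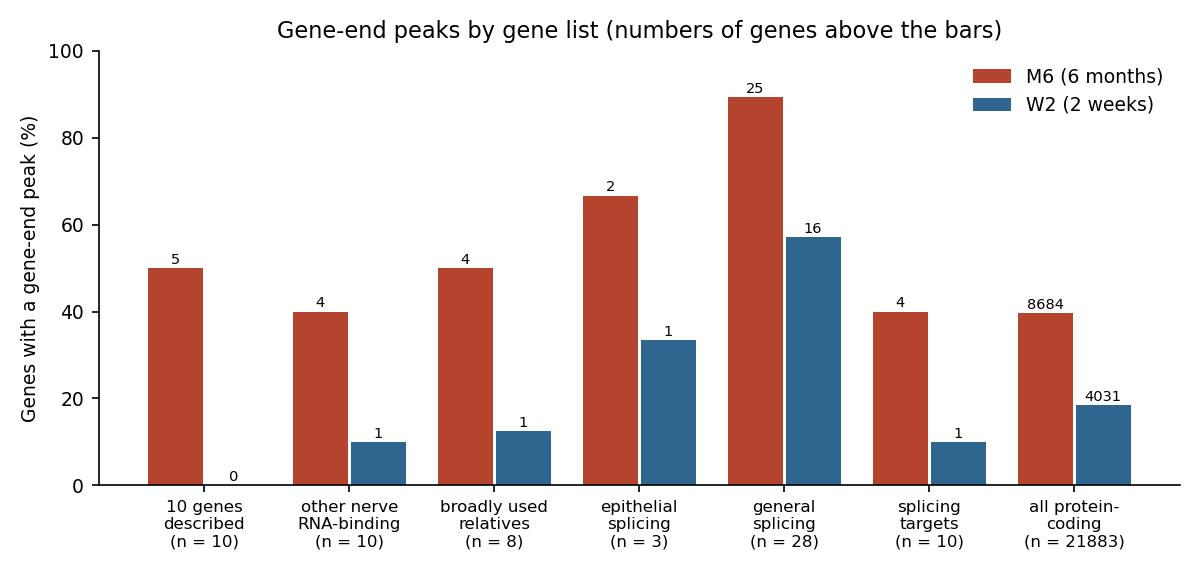
Share (%, y axis) of each list whose members had a peak within 1 kb of either end, M6 as left bars and W2 as right bars, for the 10 genes described, 5 related lists and all protein-coding genes, with the number of genes above each bar. The 10 genes have 5 in M6 and 0 in W2, and the 28 general splicing factors 25 in M6 and 16 in W2 (89.3% and 57.1%).

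Markers of cell types were counted beside these results. Among 10 luminal prostate markers, 5 had a peak at a gene end in M6 and 4 in W2 (Elf3, Cldn3, Cdh1 and Epcam in both, Krt8 in M6 alone), and Hoxb13 and Foxa1 had none in either. Nerve cell markers had 3 of 8 in M6 (Syt1, Map2 and Tubb3, the last a site also at Mc1r) and 1 in W2 (Map2). Snap25, Stmn2, Gap43, Syp and Dcx had no gene-end peak in either. The windows of the nerve markers held 30 M6 and 4 W2 peaks, most of them at Syt1 (10 and 0), Tubb3 (8 and 1) and Map2 (6 and 1). Stmn2 went the other way, with 0 and 1. Glial markers had 2 of 6 in M6 and 1 in W2, while Gfap and Sox10 had none. Leukocyte, fibroblast and endothelial markers had 0 of 6, 0 of 6 and 0 of 5 in both libraries. Windows of the luminal markers held 41 M6 and 18 W2 peaks, and those of the glial markers 15 and 4. Leukocyte, fibroblast and endothelial windows held 6 and 3, 3 and 0, and 8 and 2. The part of nerve or glial cells in the members' M6 peaks was not tested.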

How the data were processed

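ATAC-seq was measured in 1 M6 and 1 W2 library of mouse prostate tumor cells. The submitters' processing notes name mm10, SAMtools 1.4, deepTools, Bowtie2 and Trim Galore 0.5.0. For the peak caller, its threshold, duplicate handling and read shifting, nothing is given in the sources used. The authors deposited 1 peak list per library, with a score, a fold (a linear ratio over local background), a −log10 p and a −log10 q per peak, and a summit offset. The deposited score was not used. These values are the authors' own and served to describe and filter peaks within a list.

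Peaks on unplaced sequences were left out, which kept most (22570 of 22594 in M6, 5735 of 5765 in W2). Summit pileup and background were recovered from fold, taken as (pileup + 1)/(background + 1), and the Poisson −log10 p. A whole pileup fitted 100% of peaks within 0.001 of the deposited −log10 p, and the step was tested on simulated data. Read depth is unknown. The lowest background, a measure of relative depth, was 2.65 tags in M6 and 2.96 in W2, a ratio of 0.895. Genes and promoters came from RefSeq tables of GRCm38.p6. Windows reach 50 kb beyond the gene body, gene ends 1 kb, and an overlap of 1 bp counts as shared. Python 3.11.15, pandas 2.3.3 and scipy 1.17.1 were used. With 1 library per time point no test was made, and intervals (exact Clopper-Pearson, 95%) cover counting error only. Alternatives were other windows, gene-end distances, thresholds, overlap rules and equal numbers of peaks. All 10 members are named, with the strongest M6 peak, gene-end peaks and W2 peaks of each, and up to 4 genes of each related list by strongest M6 gene-end peak. Some genes of these lists are not reported here by name. The members and lists were chosen with earlier results of these data known.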

Additional observations from a re-analysis of the deposited data

How the results depend on the processing

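M6 had more peaks than W2 in the members' windows, and no member had fewer, under every alternative run. The M6 count of 53 became 13 with equal numbers of peaks by −log10 q, 12 with equal numbers by fold and 35 at a −log10 q of at least 5, against 3, 3 and 2 W2 peaks. With equal numbers by fold, 5 members in place of 9 had more peaks in M6. The share of all genes with more M6 peaks was not computed for equal numbers, and the shares from the full lists do not apply there. Members with an M6 gene-end peak numbered 3 in place of 5 with equal numbers by −log10 q or by fold. Those with a W2 one remained 0 in each alternative. With equal numbers, the stricter threshold or gene ends of 500 bp, that W2 count could not rise, so these settings are no check of it. Gene ends of 5 kb and annotated starts within 1 kb could have raised it. M6 peaks overlapping a W2 peak, 2 in all, numbered 0 with 10 kb on either side or the gene body alone, 0 without Elavl3 (an alternative added after the data were seen), and 1 with either equal list or the stricter threshold. Both shared sites lie at neighbours of Elavl3. The summed tags at them were 65 in M6 and 42 in W2, a ratio of 1.55 (exact binomial 95% interval 1.03 to 2.34). The ratio of the summed folds was 1.05, and that of tags scaled by the lowest background was 1.73. In all, 23 values stayed within the limits set and 12 moved. The 23 include the W2 gene-end counts that could not rise. For counts the limit was a set ratio to the main value. For the tags at shared sites it was the interval of 1.03 to 2.34, so the fold ratio of 1.05 counted as unchanged. No paired analysis was possible because each time point had 1 library, and no library could be left out. Weak sites below the lists' lowest pileups are outside these data.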

Other observations

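Outside the named rule, and chosen after their values were seen, several long genes of the related lists had the same form of contrast inside their windows without a gene-end peak. Celf2, a relative of Celf4, had 9 M6 and 0 W2 peaks, and Khdrbs3, the paralog of Khdrbs2, had 6 M6 peaks and 1 W2 peak. Nrxn3, a synaptic adhesion gene whose exons KHDRBS proteins select, had 13 M6 peaks and 1 W2 peak. The form was not limited to genes of nerve cells. Rbfox2, a broadly used relative, had 7 M6 peaks and 1 W2 peak. The epithelial regulator Rbm47 had 4 and 0, and the general factor Mbnl1 3 and 0. Of all genes of at least 100 kb, 83.4% had more M6 than W2 peaks, and 44.6% had M6 peaks and no W2 peak.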
